A study of Mus musculus with 6 samples.

Results

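The Frizzled genes encode the receptors for Wnt ligands, and their transcript levels are described here in 6 pools of cultured mouse embryos. The family consists of Fzd1 to Fzd10. Members were the array features that name 1 gene only and carry 1 of these symbols, which gave 10 of the 19938 genes measured. Members were chosen by symbol, and among several features of a gene the one with the strongest mean signal would have been selected. Each Frizzled had a single feature, so that choice never arose. The gene identifier and symbol of all 10 matched RefSeq. Fzd5 and Fzd8 were already known from earlier results of these data to lie higher in narrow cavities when the family was taken up, so their differences are given as descriptions.

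All pools came from embryos of the outbred CD1 stock, collected on embryonic day 5.0 and kept in culture for 8 hours. The narrow group was grown in cavities of 90 µm diameter and the wide group in cavities of 180 µm, with 3 pools of 30 whole embryos in each group, described as biological replicates. P-values thus measure the spread between pools and not between embryos. The question behind the series is what an outside mechanical cue changes in the embryo, and the labels leave unstated which of the cavities provides it. Total RNA of each pool went onto 1 Affymetrix Mouse Gene 1.0 ST array. No group was an untreated or freshly collected embryo, so every value refers to cultured embryos.

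Frizzled proteins span the cell membrane and bind Wnt through a cysteine-rich domain outside the cell. With the co-receptors Lrp5 and Lrp6 they act through Dishevelled to keep beta-catenin from being degraded, and through other partners they set planar cell polarity. In the early mouse embryo Wnt signals act on the posterior side, while the distal visceral endoderm, a patch of cells at the tip of the egg cylinder, secretes inhibitors of Wnt and Nodal. Fzd8 is known as a gene of this anterior endoderm, and Fzd5 is known for its need in yolk sac vessels.

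Fzd5 and Fzd8 form 1 branch of the family by sequence, and RefSeq held a promoter window for Fzd5. It is shown beside that of Fzd1, the member with the most negative difference and the only matched window with any of the motifs searched. RefSeq windows (GRCm38.p6, 250 bases before to 50 after the start) matched 6 of the 10 members: Fzd1, Fzd4, Fzd5, Fzd7, Fzd9 and Fzd10. The bases before the start are printed from 5′ to 3′ on the gene's strand, and capitals mark a match to a motif on either strand. The Fzd5 stretch is chr1:64737751-64738000 on the minus strand and the Fzd1 stretch is chr5:4758217-4758466, also on the minus strand.
Fzd5: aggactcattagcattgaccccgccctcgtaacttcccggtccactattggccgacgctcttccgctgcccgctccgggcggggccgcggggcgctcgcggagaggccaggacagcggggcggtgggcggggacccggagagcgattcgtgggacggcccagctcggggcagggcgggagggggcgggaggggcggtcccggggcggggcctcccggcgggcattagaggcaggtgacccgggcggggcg
Fzd1: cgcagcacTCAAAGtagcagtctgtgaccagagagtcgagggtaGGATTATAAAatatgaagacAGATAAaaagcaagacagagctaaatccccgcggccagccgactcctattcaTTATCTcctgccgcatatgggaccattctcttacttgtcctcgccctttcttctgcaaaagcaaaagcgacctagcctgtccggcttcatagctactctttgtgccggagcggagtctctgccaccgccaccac

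The motifs were CTTTGA for TCF and LEF factors, TAATCC for OTX factors, TGTTTAC for FOXA factors, AGATAA for GATA factors and TATAAA for a TATA box. Among 32851 windows of the same length, 16.0%, 7.06%, 3.65%, 11.2% and 13.6% held them, in that order. Fzd1 had 1 match each for the TCF and LEF, OTX and TATA motifs and 2 for the GATA motif, and the OTX and TATA matches overlap. The other 5 windows, Fzd5 among them, had 0 matches to any of these letters. GC content was 75.7% in the Fzd5 window and 54.0% in that of Fzd1, where the median over all windows was 52.7%. Fzd5 had 38 CpG dinucleotides, Fzd9 53, Fzd10 45, Fzd4 32, Fzd7 24 and Fzd1 16, against a median of 7. The windows of Fzd4, Fzd5, Fzd7, Fzd9 and Fzd10 were thus rich in GC, and the printed pair spans most of this range.

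Signals are log2 values that had been normalized before deposit, so a difference of 1 would be a doubling. Over 28853 features the array medians lay between 7.62 and 7.67, and any pair of arrays correlated at 0.998 or more. The first principal component over genes, with 37.3% of the variance, placed the arrays numbered 1 at -10.1 (narrow) and -8.06 (wide) and the other 4 between 3.31 and 5.48. Values of the members, and the counts of the gene lists that called any gene, are therefore given without the arrays numbered 1 as well. Pou5f1 (epiblast), Elf5 (extraembryonic ectoderm) and Amn and Afp (visceral endoderm) had mean signals of 11.81, 11.80, 11.59 and 10.95 in narrow pools, so defining markers of these tissues gave signals well over the array medians, as the label of whole embryo implies. In such pools, fewer cells of a type and less RNA per cell cannot be told apart. Frizzled features lay between the 45.5th and the 90.2th percentile of mean signal over genes, an order of probes that does not rank the receptors.

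**Figure D1:**
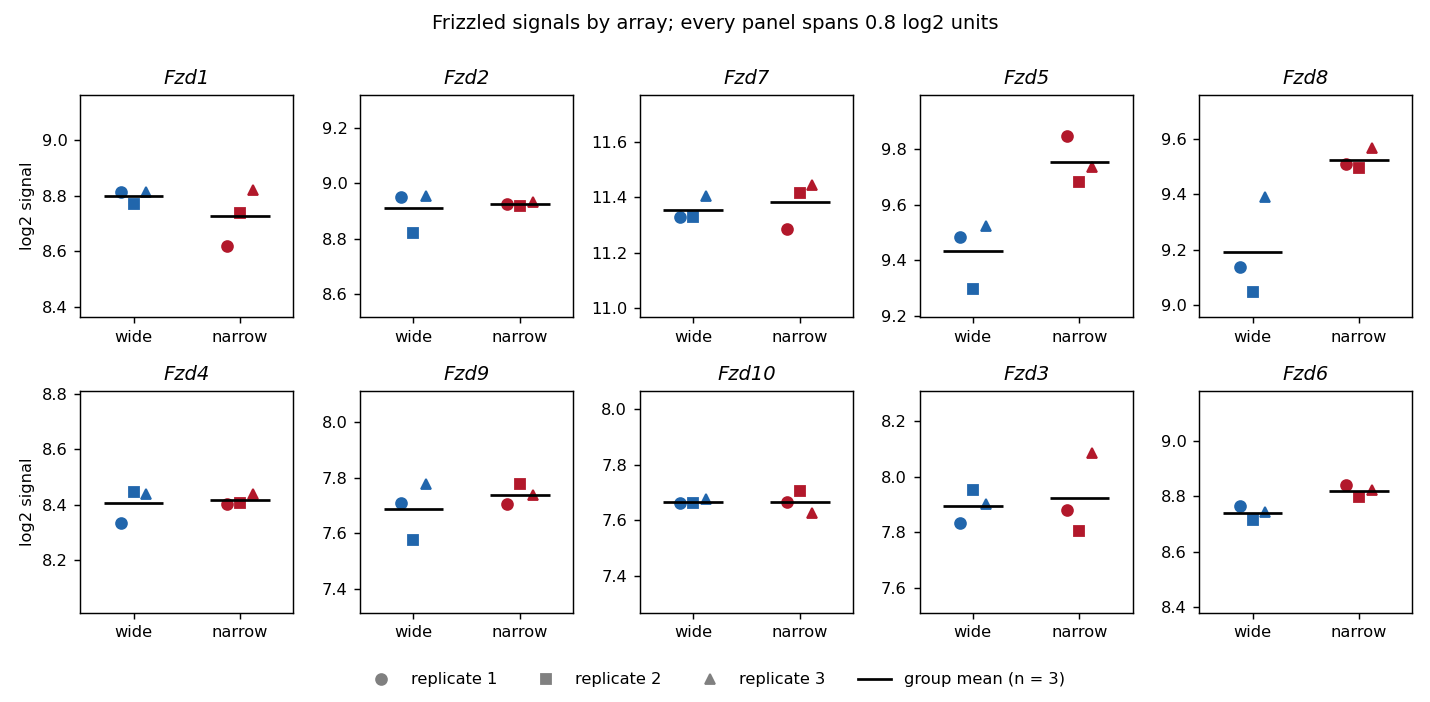
Log2 signal of each Frizzled gene in the 6 arrays, wide pools in blue and narrow pools in red, with the marker shape giving the replicate number and the bar the mean of 3 arrays. The groups are apart in the panels of Fzd5, Fzd8 and Fzd6 and overlap in the other 7, and every panel spans the same range.

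Fzd5 and Fzd8, a closely related pair, were both higher in narrow cavities, by 0.32 and 0.33 on the log2 scale. Fzd5 had log2 signals of 9.85, 9.68 and 9.73 in narrow pools 1 to 3 and of 9.48, 9.30 and 9.52 in wide pools 1 to 3. The lowest narrow pool stood 0.16 above the highest wide pool. The means were 9.75 ± 0.09 and 9.43 ± 0.12 (SD, n = 3 each), a difference of 0.32 ± 0.07 (SE) on the log2 scale, or 1.25-fold (95% interval 1.12 to 1.40, not adjusted for the number of genes). Fzd8 had signals of 9.51, 9.49 and 9.57 in narrow pools and of 9.14, 9.05 and 9.39 in wide pools. Its groups did not overlap either, with a gap of 0.10, and the wide pools spread more (SD 0.18) than the narrow ones (SD 0.04). The Fzd8 difference was 0.33 ± 0.08, or 1.26-fold (95% interval 1.10 to 1.44). For both genes wide pool 2 was the lowest array and wide pool 3 the highest of its group.

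In size, the Fzd8 difference was the 6th and that of Fzd5 the 7th largest in favour of narrow cavities among 19938 genes, and 9 genes (0.0451%) had a difference of 0.3 or more. In either direction Fzd8 and Fzd5 ranked 10th and 12th by size, and 39th and 17th by the limma p. Neither passed the test over all genes. By limma with Benjamini-Hochberg adjustment, the adjusted p was 1.00 for both (0.630 for both with the replicate number as a block). Over all genes 0 passed, while 678 (3.40%) had an unadjusted p under 0.05 (1446, or 7.25%, with the block), and a test with unequal variances gave 0 and 477. At that unadjusted threshold 2 of the 10 Frizzleds were higher in narrow cavities and 0 lower, where 1.68% of all genes were higher. As this contrast drew attention to the pair, nothing is read from that count or from the ranks.

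**Figure D2:**
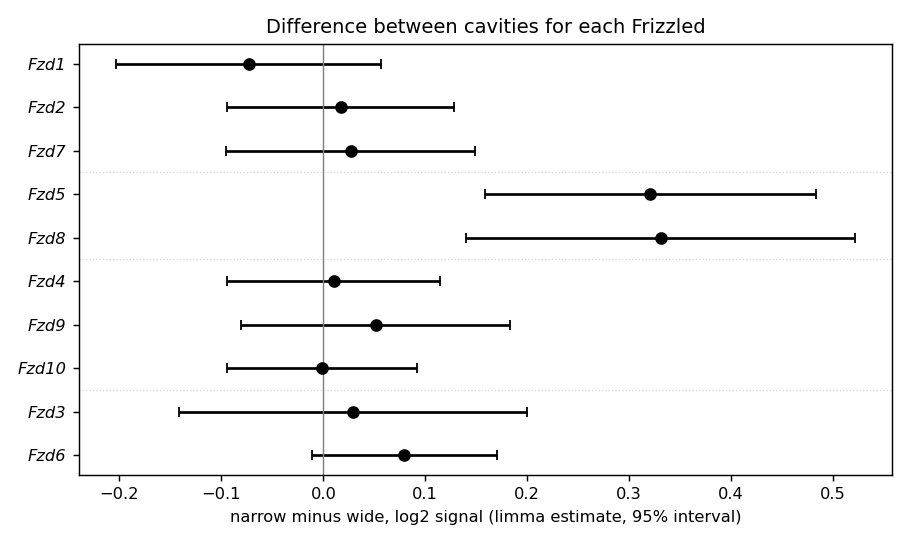
Difference between cavities (narrow minus wide, log2 signal) for each Frizzled gene, points being limma estimates and bars their 95% intervals, with dotted lines between sequence groups. The intervals of Fzd5 (0.16 to 0.48) and Fzd8 (0.14 to 0.52) lie above 0, and the other 8 include 0.

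Fzd3 and Fzd6 are receptors known for planar polarity in nervous system and skin, and the cavities lay apart for Fzd6 and overlapped for Fzd3. Fzd6, which orients hair follicles, had signals of 8.84, 8.80 and 8.82 in narrow and of 8.77, 8.71 and 8.74 in wide pools. The groups lay apart, but by a gap of 0.03 only, and both had little spread (SD 0.02 and 0.03). The difference was 0.08 ± 0.04, or 1.06-fold (95% interval 0.992 to 1.13), with a limma adjusted p of 1.00. Fzd3, which guides growing axons, had 7.88, 7.81 and 8.09 in narrow and 7.83, 7.95 and 7.90 in wide pools. Its groups overlapped fully, and narrow pool 3 was the highest array while narrow pool 2 was the lowest. The Fzd3 difference was 0.03 ± 0.07 (95% interval 0.907 to 1.15-fold), and 0.02 ± 0.10 without the arrays numbered 1.

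Fzd1, Fzd2 and Fzd7, another group of related receptors, had differences on both sides of 0. Fzd7, a Frizzled of pluripotent cells, had 11.29, 11.41 and 11.44 in narrow and 11.33, 11.33 and 11.40 in wide pools. The difference was 0.03 ± 0.05, with narrow pool 1 the lowest of all arrays. It was 0.07 without that pool and 0.06 ± 0.05 without both arrays numbered 1. Fzd1 had 8.62, 8.74 and 8.82 in narrow and 8.81, 8.77 and 8.81 in wide pools. It was the member with the most negative difference, -0.07 ± 0.06, and narrow pool 1 was again the lowest array. Without the arrays numbered 1 that difference was -0.01 ± 0.05. Fzd2 had 8.93, 8.92 and 8.93 in narrow and 8.95, 8.82 and 8.96 in wide pools, a difference of 0.02 ± 0.05 (0.04 ± 0.06 without the arrays numbered 1). Its narrow pools were nearly alike (SD 0.006), within the range of the wide ones.

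Fzd4, Fzd9 and Fzd10 likewise overlapped between cavities. Fzd4, the receptor for norrin in the vessels of the retina, had 8.40, 8.41 and 8.44 in narrow and 8.33, 8.44 and 8.44 in wide pools. Its difference was 0.01 ± 0.05, and turned to -0.02 ± 0.05 without the arrays numbered 1. Fzd9 had 7.70, 7.78 and 7.74 in narrow and 7.71, 7.58 and 7.77 in wide pools, a difference of 0.05 ± 0.06 in which wide pool 2 was the low array. Without the arrays numbered 1 it was 0.08 ± 0.07. Fzd10 had 7.66, 7.70 and 7.63 in narrow and 7.66, 7.66 and 7.68 in wide pools. With a difference of -0.001 ± 0.040 it was the member nearest to 0, also without the arrays numbered 1 (-0.004 ± 0.050). Fzd10os, a noncoding RNA gene that neighbours Fzd10, had a difference of 0.08 ± 0.07 with overlapping groups.

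In the 7 members other than Fzd5, Fzd6 and Fzd8, differences ran from -0.07 to 0.05 with standard errors of 0.04 to 0.07. Their 95% intervals reached down to 0.869-fold (Fzd1) and up to 1.15-fold (Fzd3). These bounds are those of each gene's fit and not limits of detection, as differences the size of those of Fzd5 and Fzd8 did not pass over all genes. Over all 10 members the median difference was 0.028 and 8 were positive, against a median of 0.001 and 50.9% positive over all genes. Without Fzd5 and Fzd8 the median was 0.022. The median of the 10 was 0.060 without narrow pool 1, 0.016 without narrow pool 3 and 0.046 without wide pool 3, and 0.050 in the 4 arrays numbered 2 and 3. All narrow pools lay above all wide pools for 3 of 10 members and below them for 0, where 4.17% and 3.54% of all genes did so. The 3 include Fzd5 and Fzd8, already known to lie higher, so nothing is read from that count. Without the pair it was 1 of 8.

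The replicate numbers were taken to pair the pools, and the differences are also given by pair. Groups that lie apart, as for Fzd5, Fzd6 and Fzd8, differ in 1 direction under any pairing, so only the sizes add to the above. Fzd5 differed by 0.37, 0.39 and 0.21 in pairs 1, 2 and 3, and Fzd8 by 0.37, 0.45 and 0.17. In both genes pair 3 gave the smallest difference and pair 2 the largest. Fzd6 was even, at 0.07, 0.08 and 0.08. Signs were mixed elsewhere, with Fzd3 at 0.05, -0.15 and 0.19 and Fzd9 at -0.007, 0.20 and -0.04. In the 4 arrays numbered 2 and 3 the difference was 0.30 ± 0.08 for Fzd5, 0.31 ± 0.11 for Fzd8 and 0.08 ± 0.05 for Fzd6, so these values were about as large without the arrays numbered 1.

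**Figure D3:**
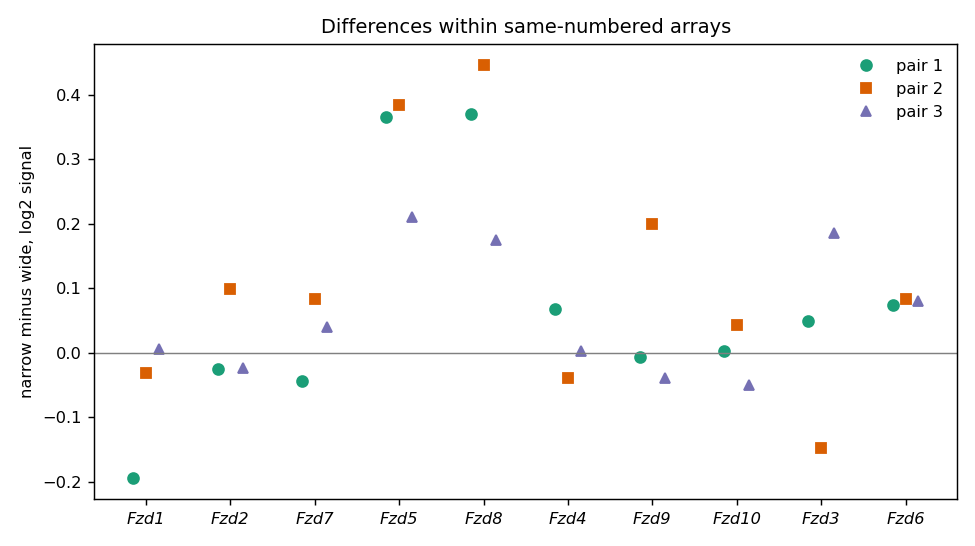
Narrow minus wide difference in log2 signal within each same-numbered pair of arrays, for each Frizzled gene, with shape and colour giving the pair. All 3 points lie above 0 for Fzd5 (0.21 to 0.39), Fzd8 (0.17 to 0.45) and Fzd6 (0.07 to 0.08), and no other member has 3 points on 1 side.

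Across the 6 arrays Fzd5 and Fzd8 correlated with each other at r = 0.907. The arrays share their groups and replicate numbers, so these correlations describe the pools and give no test. Of 19937 other genes, those most like Fzd5 were Kbtbd6, an adaptor of a ubiquitin ligase (0.991), Scrn1 (0.989) and Ank1, an ankyrin of the red cell membrane (0.984). Cer1, a secreted inhibitor of Nodal, followed at rank 4 (0.982), the Wnt-binding protein Sfrp1 at rank 7 (0.980) and Fzd6 at rank 11 (0.970), all 3 picked out after their values were seen. Other markers of distal visceral endoderm were less like Fzd5, with Lhx1 at rank 171 (0.886) and Lefty1 at rank 1205 (0.688). Most like Fzd8 were the mitochondrial carrier Sfxn2 (0.994), the Dishevelled-binding protein Dact1 (0.992) and the protocadherin Pcdh7 (0.986), and here Cer1 was at rank 179 (0.884). The 6 leading genes had differences of 0.06 to 0.27, a direction that follows from choosing them by likeness to genes whose groups lie apart.

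Other genes of the Wnt pathway were taken from 9 lists with 109 genes, of which 107 were measured. Tcf7 and the target gene T were not analysed here. By limma 0 of the 107 passed over all genes. At an unadjusted p under 0.05, 5 were higher and 1 lower in narrow cavities, with 1.68% and 1.72% of all genes as the background. With the block 10 were higher and 4 lower, beside 705 and 741 of all 19938 genes (7.25% in either direction). The counts were 5 and 1 without the arrays numbered 1, beside 506 and 408 of all genes. Without wide pool 2 they were 3 and 0, beside 234 and 263 of all genes. The median difference over the 107 was 0.009. Of these, the 13 secreted antagonists had 2 higher at that threshold (Cer1 and Sfrp1) and 0 lower. Cer1 is described above as an inhibitor of Nodal, and the list counts it among the antagonists. Of the 13 antagonists 8 had negative differences, and their median was -0.03. Without the arrays numbered 1 their counts were 2 and 1, Dkk4 being the lower gene. With the block they were 3 and 1, as Dkk4 and Frzb joined.

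Among 20 ligands, Wnt3, the ligand of the posterior epiblast and endoderm, differed by -0.04 ± 0.07, and 0 had an unadjusted p under 0.05 (2 with the block, Wnt4 and Wnt6). The co-receptors Lrp5 and Lrp6 stood at -0.01 ± 0.06 and 0.03 ± 0.04. Of 12 co-receptors and alternative receptors the 1 with an unadjusted p under 0.05 was Ror1, a kinase receptor for Wnt5a, at 0.15 ± 0.06, with 9.43, 9.52 and 9.46 in narrow and 9.26, 9.26 and 9.42 in wide pools. Its groups lay apart by 0.01 only, and its unadjusted p was 0.0683 without the arrays numbered 1. With the block Reck joined it, but lower in narrow pools. Frizzleds are removed from the membrane by the ubiquitin ligases Znrf3 and Rnf43, which R-spondins counteract. Znrf3 differed by 0.05 ± 0.05. Rspo3, an R-spondin, was higher in narrow pools by 0.23 ± 0.07, with 8.55, 8.55 and 8.40 against 8.38, 8.17 and 8.25. It was the 1 of 11 genes of this list to have an unadjusted p under 0.05, also without the arrays numbered 1, and with the block Shisa2 joined it.

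In the cytoplasm and nucleus differences were small. Dvl2, a Dishevelled, was at 0.007 ± 0.039, beta-catenin (Ctnnb1) at -0.01 ± 0.04 and the nuclear factor Lef1 at 0.03 ± 0.05. None of 12 transducers, 11 nuclear factors and 13 planar polarity genes had an unadjusted p under 0.05 (0 in each list), nor did the 3 genes of ligand processing. With the block the planar polarity gene Celsr1 did. Among 15 target genes Axin2, the common readout of beta-catenin signalling, was at -0.02 ± 0.07. Dact1 was higher in narrow pools by 0.27 ± 0.07, with 8.25, 8.26 and 8.37 against 7.99, 7.90 and 8.19. Bmp4, a ligand made by extraembryonic ectoderm, was lower in narrow pools (-0.21 ± 0.08), with 11.68, 11.70 and 11.48 against 11.87, 11.91 and 11.70, so that the groups nearly met. Without the arrays numbered 1, Bmp4 had an unadjusted p of 0.0791 and Dact1 of 0.0390. In that fit, and with the block, Ccnd1 also had an unadjusted p under 0.05, higher in narrow pools.

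**Figure D4:**
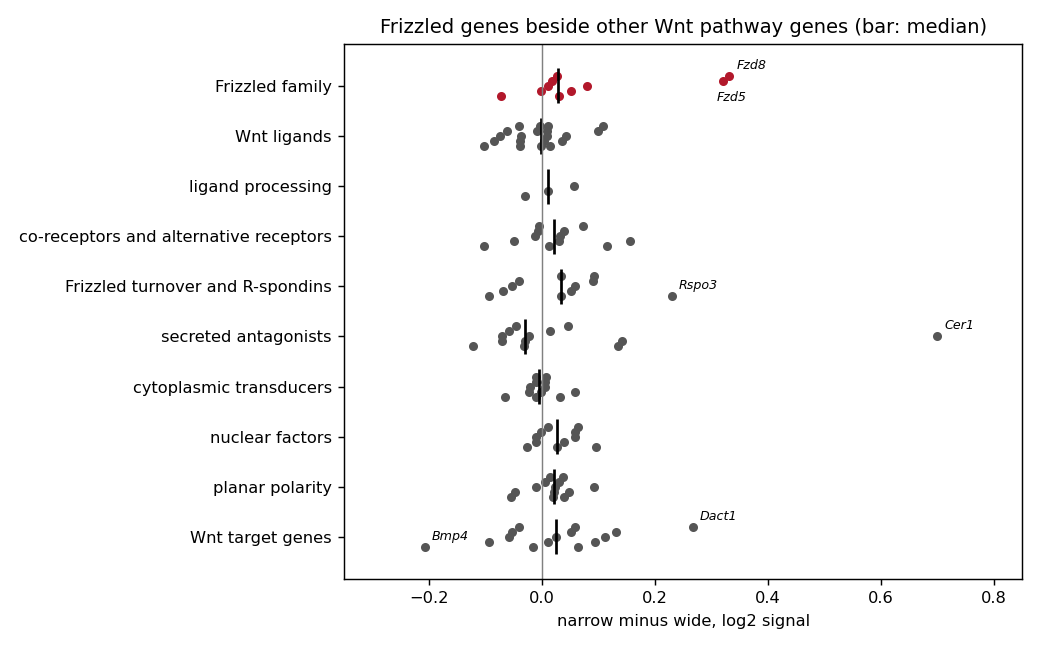
Narrow minus wide difference in log2 signal of each measured gene in the Frizzled family (red) and in 9 lists of other Wnt pathway genes (grey), with a bar at the median of each list and names where the difference is 0.2 or more in size. Fzd5 and Fzd8 stand at 0.32 and 0.33, the 9 list medians lie between -0.03 and 0.03, and Cer1 is the highest at 0.70.

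Fzd8 marks the anterior endoderm, so markers of that tissue are given beside it. Of 10 distal visceral endoderm markers, Fzd8 not counted, 4 had an unadjusted p under 0.05, all higher in narrow cavities, as 1.68% of all genes were: Cer1 (0.70 ± 0.13), Lefty1 (0.31 ± 0.05), Lhx1 (0.15 ± 0.05) and Sfrp1 (0.14 ± 0.05). The count was 3 without the arrays numbered 1, where Lhx1 was at 0.10 ± 0.05 (unadjusted p = 0.107 by limma). In that fit 506 of all 19938 genes were higher at this threshold. The count was also 3 without narrow pool 1 or wide pool 2, which cost Sfrp1 (unadjusted p of 0.0664 and 0.0828), and without wide pool 1, which cost Lhx1 (0.0540). Over all genes 642, 234 and 320 were higher in these fits, in that order. The Wnt inhibitors Dkk1 and Sfrp5 from the same list stood at -0.06 ± 0.04 and -0.03 ± 0.06. Of the 10 differences in this list 6 were positive and 4 negative, the lowest at -0.09. The mean log2 signal over the list ranged from 9.60 to 9.76 in narrow and from 9.53 to 9.62 in wide pools, and the list's median difference was 0.029. None of its markers was listed at 0, and array signals carry no true 0. The list's part in the Fzd5 and Fzd8 differences was not tested.

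At an unadjusted p under 0.05, which 3.40% of all genes reached in either direction, 1 of 14 general visceral endoderm markers was higher and 0 lower, with a median difference of -0.010 and list means of 11.61 to 11.64 in narrow and 11.58 to 11.62 in wide pools. The 8 epiblast markers had a median of -0.035 with 0 at that threshold, and the 8 extraembryonic ectoderm markers -0.021 with 2 lower. The genes behind these counts, named after their values were seen, were the transferrin gene Trf (0.18 ± 0.05) and, lower, Bmp4 and the nuclear receptor gene Esrrb (-0.22 ± 0.04). Parietal endoderm (6 markers, median 0.015), ectoplacental cone (3 measured, 0.086) and maternal decidua and blood (6 measured, -0.060) had 0 at that threshold. With the block, which called 7.25% of all genes, general visceral endoderm had 3 higher and extraembryonic ectoderm 3 lower. Epiblast then had 1 lower and parietal endoderm 1 higher. Without the arrays numbered 1, a fit that called 914 of all 19938 genes, general visceral endoderm had 2 higher and extraembryonic ectoderm 1 lower. Epiblast and parietal endoderm had 0 there, ectoplacental cone 1 higher, and maternal decidua and blood 1 lower. Smo, the other receptor of the same class, which serves Hedgehog signalling, had a difference of 0.05 ± 0.10 with overlapping groups.

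**Figure D5:**
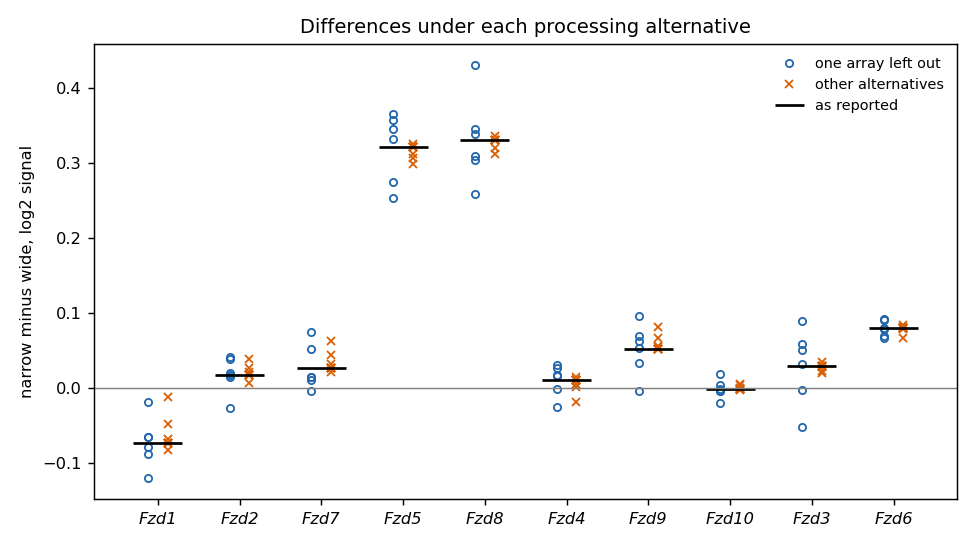
Narrow minus wide difference in log2 signal of each Frizzled gene as reported (bar), with each array left out in turn (circles) and under the other processing alternatives (crosses). Fzd5 stays between 0.25 and 0.37 and Fzd8 between 0.26 and 0.43, Fzd6 between 0.07 and 0.09 and Fzd1 below 0, while the other 6 cross 0 under at least 1 alternative.

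Processing moved the pair little, though many alternatives cannot move the difference of a gene with 1 feature. Fzd5 ranged from 0.25 (without wide pool 2) to 0.37 (without wide pool 3) and Fzd8 from 0.26 to 0.43 in the same fits. Both had an unadjusted p under 0.05 in 17 of 17 alternatives by limma, with adjusted p from 0.630 upward. The alternatives reuse the same arrays, and the pair was already known to lie higher, so nothing is read from that count. The test with unequal variances, which completes the 18 alternatives, is not given for single genes. Fzd8 had unequal SDs (0.04 in narrow and 0.18 in wide pools), so its count covers limma only. Fzd6 crossed the unadjusted threshold in 1 of 17, the fit on genes above the 50th percentile of signal. Fzd2, Fzd3, Fzd4, Fzd7, Fzd9 and Fzd10 changed sign in at least 1 alternative, Fzd10 also when arrays were quantile normalized or centred on their median.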

How the data were processed

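Per the design text, RNA of embryo pools was hybridized to Affymetrix Mouse Gene 1.0 ST arrays. The values are log2 signals as deposited by the authors, from 4.33 to 14.31, and this scale was read from their range. Sources used here do not state how they were background-corrected and summarized. Nearly equal quartiles show normalization between arrays, which hides changes in total RNA. Of 28853 features, 21789 named 1 gene in the platform annotation. Narrow and wide pools (3 each) were compared with limma 3.58.1 in R 4.3.3 (lmFit, eBayes, two-sided, no covariate) over all 19938 genes, Benjamini-Hochberg threshold 0.05. The limma code was also run on simulated data that took their means and SDs from this fit, so that run came after it. Deviations from group means correlated at 0.516, 0.176 and 0.272 for pools numbered 1, 2 and 3. All exceed 0.1, so the numbers were taken as pairs on this basis alone, although narrow 2 and wide 3 reached 0.178. Members, lists and motifs were chosen with earlier results of these data known. Named were all members, fixed pathway genes, pathway genes with an unadjusted p under 0.05, and for Fzd5 and Fzd8 the 3 genes with the highest Pearson correlation. Proteins were not compared, and sequences are RefSeq's.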

Additional observations from a re-analysis of the deposited data

How the results depend on the processing

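Under 17 alternatives by limma and with unequal variances 0 genes passed. The 678 genes with an unadjusted p under 0.05 became 1446 with the replicate number as a block and 384 among genes past the 50th signal percentile, a fit that tests fewer genes. Leaving out single arrays gave 497 to 990. The block gave Fzd5 0.32 ± 0.05 and Fzd8 0.33 ± 0.06, the same 2 members with an unadjusted p under 0.05, and changed no call. Of 167 values of the 10 members 12 changed sign, 0 of them in Fzd5 or Fzd8. Many settings cannot move the difference of a gene with 1 feature, so this count shows little about stability. Leaving out each array gave family medians of 0.016 to 0.060. Dim genes are limited by background, which was not measured.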
